A study of Homo sapiens with 8 samples.

Results

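Cells entering mitosis depend on a set of genes whose messenger RNA rises late in the cell cycle and falls again after division. Described here are 42 of these genes, which encode mitotic kinases and cyclins, the spindle assembly checkpoint, the kinetochore, the chromosomal passenger complex, partners of the anaphase-promoting complex, spindle motors and the proteins of cytokinesis. They were taken by name from a list of late cell-cycle genes and form 42 of the 58592 genes annotated in the series. The list holds names and no measured value. It was drawn up with earlier results of the same data known, so it cannot be called independent of these libraries. All 42 had counts in every library, from 529 to 20014 per gene and library, and all 42 passed the filter on low counts.

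The libraries came from HEK293T (293T/17), a human embryonic kidney cell line with the SV40 large T antigen, a viral protein that binds the retinoblastoma family and p53. In the overexpression group, 4 libraries, cells had been transfected by FuGene HD with a construct that carries the human KCNQ3 open reading frame and a tag. KCNQ3 is a subunit of voltage-gated potassium channels, and the cells were collected after 48 hours. In the control group, 4 libraries, the cells are called normal. Every sample carries the same transfection wording, so the labels leave it unsaid whether controls saw the reagent or an empty plasmid. A single line was used, and in a transient transfection not every cell takes up the construct. The series names the 4 samples of a group biological replicates, but no label says that they were separate cultures, so the p-values below measure sample-to-sample spread, part or all of which may be technical.

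Total counts ran from 24020097 to 30734915 per library. KCNQ3 went from 0.0996 ± 0.080 to 684 ± 88.0 CPM (a library's counts scaled to a common depth by the TMM method, mean ± SD, n = 4 per group), so every library matched its label. Of the markers of the line, VIM, KRT8, KRT18, NEFL, NEFM and PAX2 were present in all libraries, and PAX8 was at or near 0 (highest 0.0311 TPM, a level corrected for transcript length and library depth). Summed markers of other cells stayed low: 3.99 to 7.29 TPM for 7 fibroblast genes, of which COL1A1 made most and DCN, COL1A2 and THY1 were at 0, 1.34 to 2.83 TPM for 5 blood genes, with PTPRC, CD3E and HBB at 0, and 0 to 0.0571 TPM for 4 endothelial genes.

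As background, entry into mitosis is driven by the kinase CDK1 bound to cyclin B, with PLK1, the Aurora kinases and the CDC25 phosphatases feeding its activation. The checkpoint proteins BUB1, BUBR1 (BUB1B), BUB3, MAD2 (MAD2L1) and MPS1 (TTK) hold CDC20 inactive until each kinetochore is attached, after which CDC20 and the anaphase-promoting complex mark securin (PTTG1) and cyclin B for destruction. In cycling cells many of these genes are held in check early in the cycle by the DREAM complex and switched on later by B-MYB and FOXM1. Just ahead of their start sites 2 short promoter elements are often found, the CCAAT box and the cell cycle homology region (TTTGAA).

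The promoters of 4 of the genes are shown because they span what was found in these data: HMMR and KIF2C had separate groups, CCNB2 hardly differed and PTTG1 had the highest fold change. Each is the 250 bases before the start site in RefSeq (GRCh38.p14), on the + strand, 5′ to 3′, with CCAAT (or ATTGG, its complement), TTTGAA (or TTCAAA) and TTCGAA in capitals.
HMMR, chr5:163460382-163460631: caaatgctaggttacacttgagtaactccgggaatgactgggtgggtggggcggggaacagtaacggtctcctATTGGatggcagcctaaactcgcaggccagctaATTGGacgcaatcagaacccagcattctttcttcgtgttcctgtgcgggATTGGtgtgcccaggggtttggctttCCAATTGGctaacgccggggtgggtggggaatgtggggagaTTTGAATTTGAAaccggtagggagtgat
KIF2C, chr1:44739587-44739836: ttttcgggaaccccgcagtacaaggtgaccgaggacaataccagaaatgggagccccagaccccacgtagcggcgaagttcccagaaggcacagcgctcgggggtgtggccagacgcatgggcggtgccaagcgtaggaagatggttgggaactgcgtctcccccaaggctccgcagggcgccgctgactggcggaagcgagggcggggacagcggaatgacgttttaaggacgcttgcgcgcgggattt
CCNB2, chr15:59104896-59105145: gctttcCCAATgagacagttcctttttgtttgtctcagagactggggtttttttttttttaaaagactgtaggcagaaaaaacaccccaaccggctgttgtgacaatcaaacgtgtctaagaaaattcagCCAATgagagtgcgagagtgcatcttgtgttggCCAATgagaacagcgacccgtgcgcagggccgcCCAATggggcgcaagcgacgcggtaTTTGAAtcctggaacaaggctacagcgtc
PTTG1, chr5:160421605-160421854: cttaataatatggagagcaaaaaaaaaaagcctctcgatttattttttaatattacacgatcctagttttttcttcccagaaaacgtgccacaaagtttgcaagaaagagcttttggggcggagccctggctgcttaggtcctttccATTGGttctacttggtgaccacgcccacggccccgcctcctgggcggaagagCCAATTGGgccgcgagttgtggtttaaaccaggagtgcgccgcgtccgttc
HMMR held 5 CCAAT matches, of which the pair that begin 69 and 66 bases before the start overlap in CCAATTGG, and 2 adjoining TTTGAA matches beginning 28 and 22 bases before it. CCNB2 held 4 CCAAT matches and 1 TTTGAA match, 29 bases before its start. PTTG1, for which the first of 2 annotated windows is shown, held 3 CCAAT matches and no TTTGAA, and KIF2C held none of these letters.

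RefSeq windows of 300 bases, from 250 before to 50 after a start, were matched for 36 of the 42 genes. AURKA, BUB3, TTK, BIRC5, UBE2C and TPX2 had no entry. CCAAT on either strand was found in 30 of the 36 (83.3%), against 39.7% of all 27305 genes with a window, and at least 2 CCAAT matches in 20 (55.6%), against 12.9%. TTTGAA on either strand was found in 25 (69.4%), against 18.2% of all genes. The variant TTCGAA was found in 3 (8.33%), against 1.82%. CCAAT together with TTTGAA was found in 21 (58.3%), against 7.26%. Genes with several start sites counted once if any window held the letters, and the mean number of windows was 1.28 for these genes and 1.29 for all. A match is only a match of letters, and binding was not measured.

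The mitotic genes differed little between the groups. The difference between groups was tested with edgeR's quasi-likelihood test across 19280 genes with Benjamini-Hochberg adjustment, and 0.301% of all genes passed an adjusted p of 0.05. None of the 42 did. At an unadjusted p under 0.05 there were 5 lower (HMMR, TPX2, KIF2C, NEK2 and PRC1) and 2 higher (UBE2C and PTTG1) after overexpression, beside a background of 9.46% lower and 9.92% higher over all genes (19.4% in either direction). On limma's test of log2 TPM 0 of the 42 passed as well, beside 0.0308% of all genes with the filter. DESeq2 called 3 of the 42 (HMMR, TPX2 and KIF2C). Those 3 are 7.14% of the 42, close to the 7.02% of all genes that DESeq2 called (1352, against 58 by edgeR). In 3 of the 42, again HMMR, TPX2 and KIF2C, every overexpression library lay below every control library (background 5.77%), and in 0 every one lay above (background 5.84%). In bulk RNA, fewer cells near mitosis and less of an RNA per cell cannot be told apart.

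Log2 fold changes, overexpression over control, ran from −0.42 for PRC1 to 0.15 for PTTG1, with standard errors (SE) from 0.038 to 0.166. They were below 0 in 29 of the 42 genes, against 47.4% of all genes, and their median was −0.025, against 0.009. Leaving out 1 library at a time moved that median between −0.047 and −0.012. The 95% interval lay within a 1.25-fold change either way for 40 of the 42 and for 56.0% of all genes. The exceptions among the 42 were PRC1 and MKI67. Whether an interval lies within that range depends on the size of the change as well as on the SE. The unadjusted count of 2 higher genes fell when any of several libraries was left out. It was 1 without control replicate 2 and 0 without control replicate 1 or 3 or without overexpression replicate 2, 3 or 4. In these settings the share of all genes higher at that p fell as well, to 6.65% to 8.03%, from 9.92%. With 1 library fewer, separate groups are easier to reach for every gene. Without overexpression replicate 1 they numbered 6 lower and 2 higher (11.3% and 10.6% of all genes), without control replicate 1 they numbered 6 lower (7.2%), and without control replicate 2 they numbered 2 higher (7.88%).

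**Figure D1:**
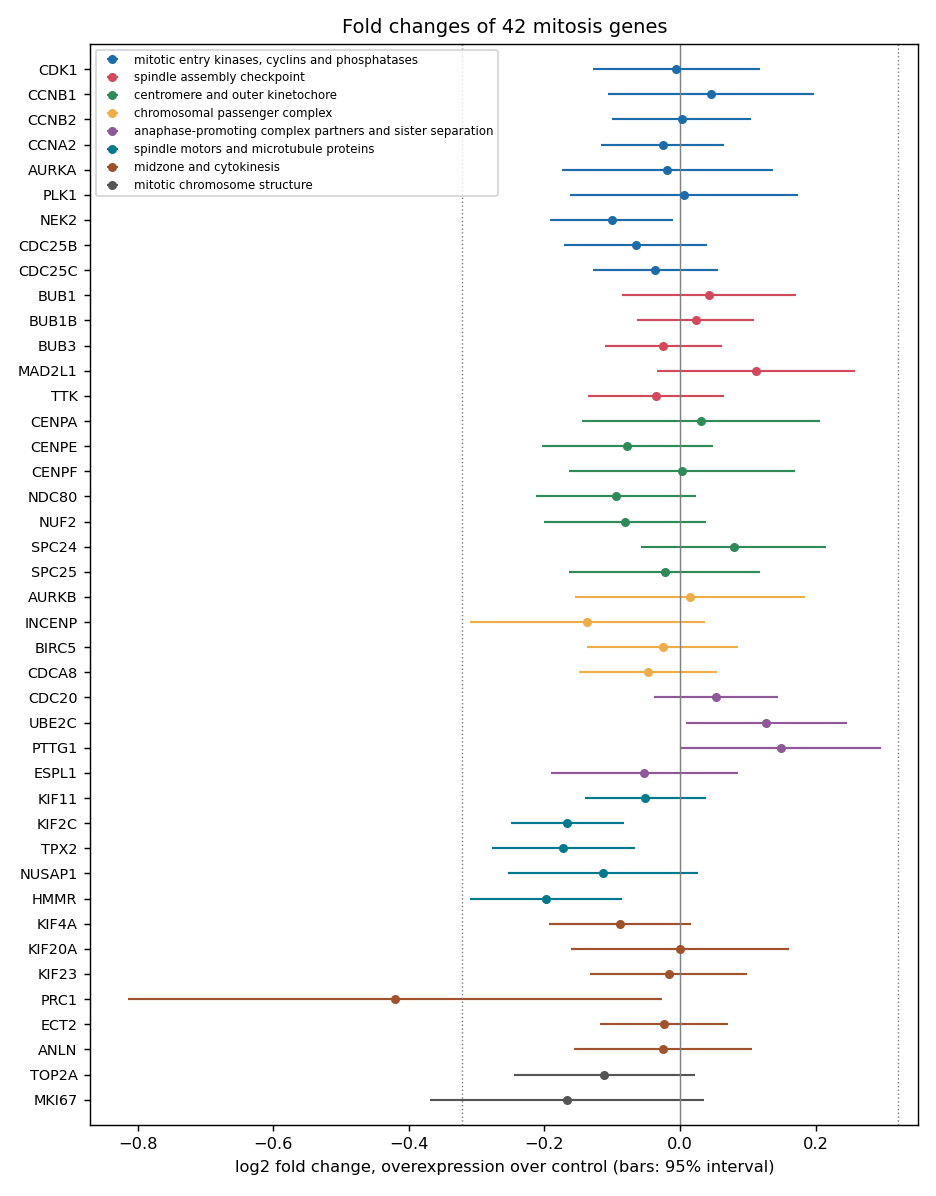
Log2 fold change of each of the 42 genes (horizontal axis, overexpression over control, 4 libraries per group), with its 95% interval as a bar, coloured by role. Dotted lines mark a 1.25-fold change either way. The points run from −0.42 (PRC1) to 0.15 (PTTG1), and only the bars of PRC1 and MKI67 cross a dotted line.

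Per length of transcript the 42 genes spanned about an order of magnitude. UBE2C, the ubiquitin-conjugating enzyme of the anaphase-promoting complex, was highest at 206 ± 17.3 TPM in controls and 217 ± 10.8 TPM after overexpression. BUB3 (194 ± 30.1 and 210 ± 16.6 TPM), CDK1 (187 ± 10.7 and 186 ± 13.3), AURKB (182.4 ± 12.7 and 178 ± 16.9) and TOP2A (185 ± 18.0 and 163 ± 10.4) came next, and in controls the SD ranges of these 5 genes overlapped. CENPE, a large kinetochore motor, was lowest at 22.8 ± 2.33 and 20.7 ± 1.56 TPM, next to ESPL1 at 24.6 ± 1.56 and 24.02 ± 2.49. Summed over the 42, the level was 3465 ± 173 TPM in controls and 3295 ± 53.2 TPM after overexpression, with overlapping groups.

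HMMR, TPX2 and KIF2C, the genes with separate groups of libraries, all belong to the spindle motors and microtubule proteins. On the TPM scales BIRC5 and NUF2, of other roles, also had separate lower groups, as did NEK2 with no scaling factor, and role groups were not tested against each other. In the spindle motor and microtubule group the log2 fold change was below 0 for all 5 genes (47.4% of all genes), with a median of −0.17. An unadjusted p under 0.05 was reached by 3 of the 5, beside 9.46% lower over all genes. These are the same 3 genes that have separate groups, and they set the median. None of the 3 passed the adjusted threshold. The motors CENPE, KIF4A, KIF20A and KIF23, placed in other role groups, had log2 fold changes of −0.08, −0.09, −0.00046 and −0.02. Of 35 other spindle, centrosome and cytokinesis factors outside the 42, 11 were above 0 and 24 below, with a median of −0.03.

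HMMR (ENSG00000072571, chromosome 5, 163460203 to 163491945, + strand, GRCh38) encodes a hyaluronan receptor that also binds spindle microtubules, and its promoter, shown above, was the richest in CCAAT among the 4. Its level was 135, 155, 150 and 142 CPM in control replicates 1 to 4 and 121, 129, 126 and 131 CPM in overexpression replicates 1 to 4. The highest overexpression library lay just under the lowest control. The log2 fold change was −0.20 (SE 0.05, adjusted p = 0.0922), a level 0.872 times that of controls (95% interval 0.807 to 0.942).

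TPX2 (ENSG00000088325, chromosome 20, 31739271 to 31801805, + strand) encodes the protein that activates Aurora A and nucleates spindle microtubules. Its level was 235, 237, 219 and 216 CPM in controls and 193, 194, 209 and 208 CPM in overexpression libraries. All 4 overexpression values were below all 4 control values. The log2 fold change was −0.17 (SE 0.05, adjusted p = 0.106), or 0.888 times (0.825 to 0.955).

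KIF2C (ENSG00000142945, chromosome 1, 44739818 to 44767767, + strand) encodes MCAK, a kinesin that takes microtubule ends apart at the kinetochore. Its level was 101.7, 100.1, 100.1 and 95.6 CPM in controls and 85.3, 88.3, 90.3 and 90.5 CPM in overexpression libraries. This was the narrowest spread of the 3, and the lowest adjusted p of all 42 (0.0751, log2 fold change −0.17, SE 0.04, 0.891 times, 0.841 to 0.945). Unlike HMMR, its promoter held neither CCAAT nor TTTGAA.

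HMMR, TPX2 and KIF2C stayed lower, with separate groups and an unadjusted p under 0.05, in all 18 alternative ways of processing, the 8 that each leave out a library included. Only DESeq2, which called 7.02% of all genes, took them past the adjusted threshold, at adjusted p values of 0.00268, 0.00594 and 0.000463. HMMR, TPX2 and KIF2C were named for their separate groups, which leaving out a library can hardly undo. Runs that keep the same scaled levels cannot undo it either. Such runs are therefore no independent check of the separation. How many of all genes stay separate in all 18 was not counted.

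The other members of the group did not separate. NUSAP1, which bundles microtubules around chromosomes and was the most abundant of the 5 per length, had 233, 240, 248 and 238 CPM in controls and 193, 219, 241 and 234 CPM in overexpression libraries. Overexpression replicates 3 and 4 lay among the controls, and its log2 fold change was −0.11 (SE 0.06, adjusted p = 0.359). KIF11, the motor that pushes spindle poles apart, had −0.05.

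**Figure D2:**
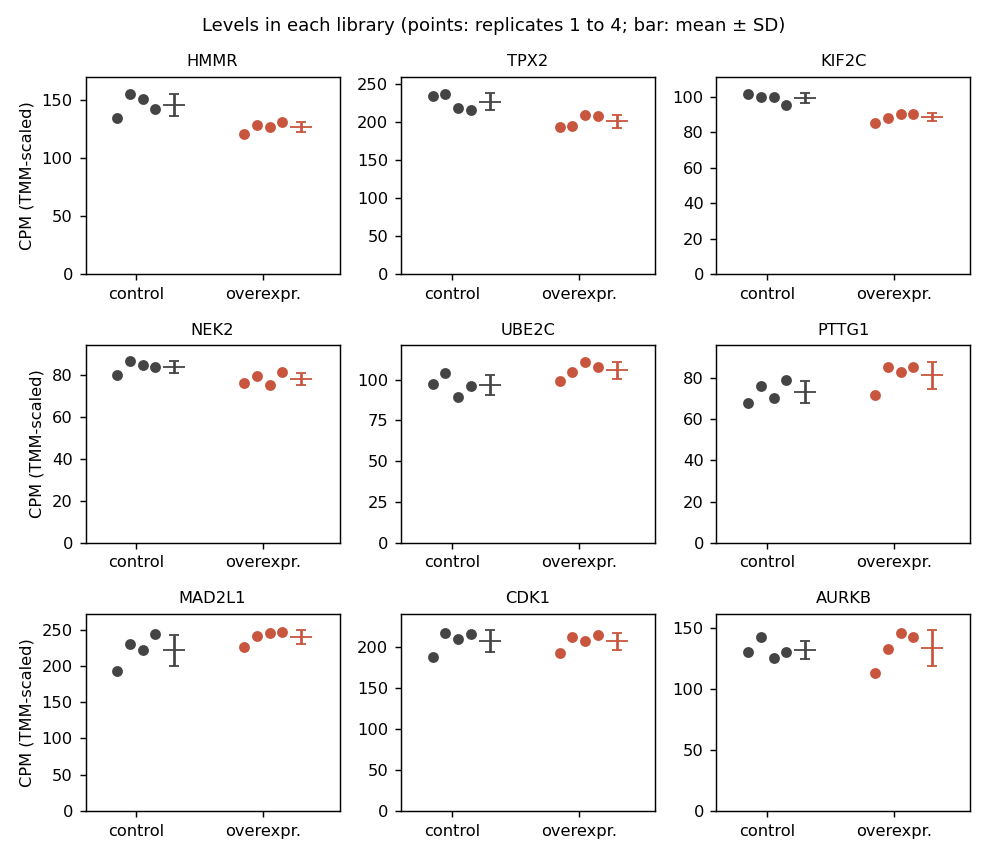
Level of 9 of the genes in every library (vertical axis, CPM with TMM scaling, from 0), points in the order of replicates 1 to 4 and bars giving mean ± SD (n = 4). HMMR, TPX2 and KIF2C show no overlap between groups, and UBE2C and PTTG1 are shifted up with overlap. CDK1 and AURKB have similar means in both groups, with a wider spread of AURKB after overexpression.

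Genes that drive mitotic entry were close to level. Of 9 kinases, cyclins and phosphatases, 3 had a log2 fold change above 0 and 6 below, with a median of −0.02. At an unadjusted p under 0.05, 1 (NEK2) was lower, beside 9.46% of all genes. CDK1 (ENSG00000170312, chromosome 10, 60778331 to 60794852, + strand), the kinase of mitotic entry, had 188, 217, 210 and 215 CPM in controls and 193, 212, 207 and 215 CPM in overexpression libraries. The groups coincided, replicate 1 being lowest in each. Its log2 fold change was −0.01 (SE 0.06, adjusted p = 0.976) and the 95% interval 0.915 to 1.09 times, with a sign that turned without control replicate 2 (0.0136), control replicate 4 (0.0095) or overexpression replicate 1 (0.0217).

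NEK2 (ENSG00000117650, chromosome 1, 211658657 to 211675630, − strand), a kinase that parts the centrosomes, had 79.9, 86.4, 84.8 and 83.6 CPM in controls and 76.1, 79.6, 75.2 and 81.2 CPM in overexpression libraries. Only control replicate 1 and overexpression replicate 4 crossed. The log2 fold change was −0.10 (SE 0.04, adjusted p = 0.216). Cyclin B1 (CCNB1) had a log2 fold change of 0.05, cyclin B2 (CCNB2) 0.0025, cyclin A2 (CCNA2) −0.03, Aurora A (AURKA) −0.02 and PLK1 0.01. The phosphatases CDC25B and CDC25C, which remove the brake on CDK1, had −0.07 and −0.04.

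The spindle assembly checkpoint was also close to level, with a median of 0.02 over 5 genes, 3 of them above 0. BUB3 (ENSG00000154473, chromosome 10, 123154277 to 123170467, + strand), which brings BUB1 and BUBR1 to kinetochores, had 266, 282, 281 and 281 CPM in controls and 269.5, 281, 265 and 275 CPM in overexpression libraries. Its log2 fold change was −0.02 (SE 0.04, adjusted p = 0.790), and on the log2(TPM + 0.5) scale it was 0.1255.

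MAD2L1 (ENSG00000164109, chromosome 4, 120055608 to 120067074, − strand), the checkpoint protein that captures CDC20, had 193, 230, 222 and 244 CPM in controls and 226, 242, 245 and 246 CPM in overexpression libraries. Replicate 1 was again lowest in each group, and control replicates 1 and 3 lay below the overexpression range. Its log2 fold change was 0.11 (SE 0.07, adjusted p = 0.386), while on the log2(TPM + 0.5) scale it was −0.0651. BUB1 and TTK, the checkpoint kinases, had 0.04 and −0.04, and BUB1B had 0.02.

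At the centromere and outer kinetochore, 3 of 7 genes had a log2 fold change above 0 and 4 below, with a median of −0.02. NDC80 and NUF2 form one end of the complex that grips microtubules, and SPC24 and SPC25 the other. NDC80 (ENSG00000080986, chromosome 18, 2571511 to 2616635, + strand) had 46.9, 44.7, 44.6 and 44.1 CPM in controls and 46.1, 43.1, 40.2 and 39.5 CPM in overexpression libraries. All but overexpression replicate 1 lay below every control, and the log2 fold change was −0.09 (SE 0.05, adjusted p = 0.365).

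NUF2 (ENSG00000143228, chromosome 1, 163266576 to 163355764, + strand) had 108, 116, 128 and 123 CPM in controls and 112, 117, 109 and 111 CPM in overexpression libraries. The groups overlapped, with a log2 fold change of −0.08 (SE 0.05, adjusted p = 0.443). SPC24 had 0.08 and SPC25 −0.02, so the 4 subunits of this complex did not share a sign. The centromeric histone CENPA had 0.03, the motor CENPE −0.08 and the kinetochore protein CENPF 0.0030.

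The chromosomal passenger complex joins the kinase AURKB to INCENP, survivin (BIRC5) and borealin (CDCA8), and corrects wrong attachments. Its log2 fold changes had a median of −0.04, with 3 of 4 below 0. AURKB (ENSG00000178999, chromosome 17, 8204733 to 8210600, − strand) had 130, 143, 126 and 130 CPM in controls and 113, 133, 146 and 143 CPM in overexpression libraries. Its lowest and highest values were both in the overexpression group, and its log2 fold change of 0.01 (SE 0.08, adjusted p = 0.943) was −0.0399 on the log2(TPM + 0.5) scale and −0.0046 with no scaling. It was −0.0125 without control replicate 3, −0.0336 without overexpression replicate 3 and −0.0223 without overexpression replicate 4.

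INCENP (ENSG00000149503, chromosome 11, 62123973 to 62153163, + strand), the scaffold of that complex, had 95.9, 97.3, 82.3 and 86.1 CPM in controls and 76.9, 74.3, 91.8 and 86.1 CPM in overexpression libraries. Overexpression replicates 3 and 4 lay among the controls, and the log2 fold change was −0.14 (SE 0.08, adjusted p = 0.369). BIRC5 had −0.03 and CDCA8 −0.05.

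Among partners of the anaphase-promoting complex and proteins of sister separation, 3 of 4 genes had a log2 fold change above 0, with a median of 0.09. At an unadjusted p under 0.05, 2 were higher, beside 9.92% of all genes. PTTG1 (ENSG00000164611, chromosome 5, 160421822 to 160428744, + strand) encodes securin, the inhibitor of separase. Its level was 67.7, 76.3, 70.3 and 79.0 CPM in controls and 71.6, 85.3, 82.9 and 85.2 CPM in overexpression libraries. Only overexpression replicate 1 lay within the control range, and the log2 fold change was 0.15 (SE 0.07, adjusted p = 0.255), or 1.11 times (1.00 to 1.23).

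UBE2C (ENSG00000175063, chromosome 20, 45812576 to 45816957, + strand) had 97.2, 104.3, 89.3 and 96.4 CPM in controls and 99.4, 104.5, 111 and 108 CPM in overexpression libraries. Control replicate 2 reached into the overexpression range. The log2 fold change was 0.13 (SE 0.05, adjusted p = 0.227), or 1.09 times (1.01 to 1.19). CDC20, the activator that the checkpoint restrains, had 0.05, and separase itself (ESPL1) had −0.05.

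In the midzone and cytokinesis group all 6 genes had a log2 fold change below 0 (47.4% of all genes), but the median was only −0.02. The motors KIF4A, KIF20A and KIF23, which carry proteins to the middle of the anaphase spindle, had −0.09, −0.00046 and −0.02. ECT2, which switches on the contractile ring, had −0.02, as did anillin (ANLN), which scaffolds it.

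PRC1 (ENSG00000198901, chromosome 15, 90966038 to 90995629, − strand), which crosslinks antiparallel microtubules of the midzone, had the lowest fold change of the 42. Its level was 197, 146, 195 and 141 CPM in controls and 158, 121, 122 and 107 CPM in overexpression libraries. Controls fell into a high and a low pair, and overexpression replicate 1 lay between them. The log2 fold change was −0.42 (SE 0.17, adjusted p = 0.231), or 0.747 times (0.569 to 0.982).

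PRC1 shares exon sequence with a second gene. AC068831.7 (ENSG00000284946, chromosome 15, 90966190 to 91022566) lies on the same strand, is annotated as protein-coding and shares 3181 exon bases with PRC1. It had 143, 176, 138 and 183 CPM in controls and 154, 183, 180 and 201 CPM in overexpression libraries (log2 fold change 0.17, SE 0.11). It was low in control replicates 1 and 3, where PRC1 was high.

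With the counts of both genes merged, an alternative chosen after seeing the data, the level was 340, 322, 333 and 324 CPM in controls and 312, 303, 302 and 308 CPM in overexpression libraries. The highest library was then 1.12 times the lowest, in place of 1.85 times for PRC1 alone. The merged groups did not overlap, and the log2 fold change was −0.11 (SE 0.04, unadjusted p = 0.0167, adjusted p = 0.165). How the deposited estimate assigned reads of the shared exons was not tested.

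**Figure D3:**
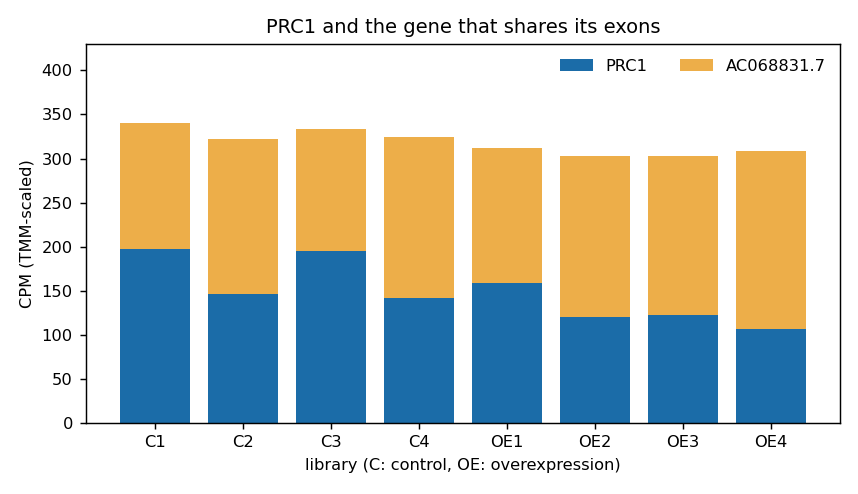
Stacked CPM (TMM-scaled, vertical axis) of PRC1 and of AC068831.7, which shares 3181 exon bases with it, in each library (C: control, OE: overexpression, numbers: replicates). The height of the stack varies little, from 302 to 340 CPM, while the PRC1 share runs from 107 to 197 CPM.

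The 2 genes of mitotic chromosome structure had log2 fold changes below 0, with overlapping groups. TOP2A (ENSG00000131747, chromosome 17, 40388516 to 40417950, − strand), the topoisomerase that untangles sister chromatids, had 649, 672, 591 and 585 CPM in controls and 555, 549, 623 and 585 CPM in overexpression libraries. Its log2 fold change was −0.11 (SE 0.06, adjusted p = 0.340). MKI67 (ENSG00000148773, chromosome 10, 128096659 to 128126385, − strand), the proliferation marker Ki-67 that coats mitotic chromosomes, had 224, 236, 191 and 210 CPM in controls and 178, 171, 222 and 195 CPM in overexpression libraries. Overexpression replicate 3 exceeded 2 of the 4 controls, and the log2 fold change was −0.17 (SE 0.09, adjusted p = 0.348).

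Most of the genes lay to one side of their mean in control replicate 2 and in overexpression replicate 1. Control replicate 2 had the highest value of all 8 libraries for 22 of the 42 genes, and 40 of the 42 were above their own mean there (median deviation 0.081 on the log2(CPM + 0.5) scale). In overexpression replicate 1, 13 of the 42 had their lowest value, 5 were above their mean, and the median deviation was −0.089. In the other 6 libraries 14 to 28 of the 42 were above their mean. Over all genes tested the median deviations lay between −0.003 and 0.007. Without control replicate 2 the median log2 fold change of the 42 was −0.0183, and without overexpression replicate 1 it was −0.0120.

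**Figure D4:**
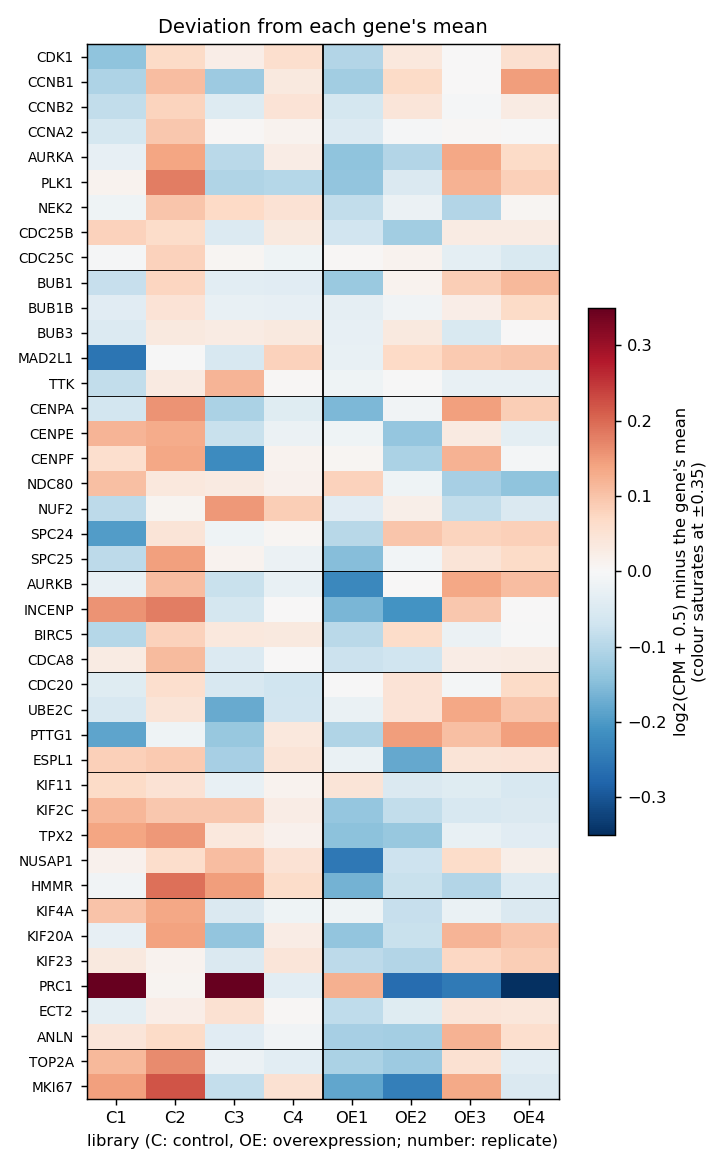
Each gene's log2(CPM + 0.5) in each library minus the gene's mean over the 8 libraries, red above and blue below, with genes in rows by role and libraries in columns (C: control, OE: overexpression). Control replicate 2 is red for 40 of the 42 genes and overexpression replicate 1 is blue for most, while the other libraries are mixed.

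Role groups did not follow the same pattern across libraries. In the spindle motor group the median deviation was above 0 in all 4 controls (0.027 to 0.094) and below 0 in all 4 overexpression libraries (−0.143 to −0.041). HMMR, TPX2 and KIF2C, already named for their separate groups, are 3 of its 5 genes, so this median largely repeats that separation. In the mitotic entry group it was −0.029, 0.093, −0.046 and 0.035 in controls and −0.086, −0.0029, 0.0012 and 0.030 in overexpression libraries. Both signs occurred in controls and in overexpression libraries there, and likewise in each of the remaining role groups.

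Transcripts gave the same count of calls as genes. Of 148 transcripts of these genes tested, 0 passed by edgeR (background 0.0127%), and 13 had an unadjusted p under 0.05 (background 5.58%), 9 of them lower and 4 higher. The groups did not overlap for 7 lower and 1 higher (background 5.68% in either direction). The smallest p belonged to the PRC1 transcript ENST00000442656, with 34.6, 29.3, 38.0 and 25.4 CPM in controls and 15.4, 22.0, 16.1 and 14.6 CPM in overexpression libraries. These ranges did not meet, and the log2 fold change was −0.90 (SE 0.19, unadjusted p = 0.00179, adjusted p = 0.664).

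The transcripts that carry nearly all counts of KIF2C (ENST00000372224, at least 98.6% in every library), TPX2 (ENST00000300403, at least 98.5%) and HMMR (ENST00000393915, at least 91.5%) also had separate groups. Their log2 fold changes were −0.19, −0.20 and −0.21. For these genes the gene and its main transcript therefore hold almost the same counts.

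Other genes were divided among isoforms very unevenly between libraries of one group. BIRC5 as a gene varied 1.13 times between its lowest and highest library, while its transcript ENST00000301633 ran from 8.18 CPM in control replicate 4 to 177 CPM in control replicate 2. The AURKA transcript ENST00000347343 held 23.6%, 93.9%, 74.4% and 95.04% of the gene's total in controls and 9.78%, 60.2%, 38.4% and 39.55% in overexpression libraries. Of 21 genes with at least 2 transcripts of mean 10 CPM or more, 6 had such a transcript at 0 in some library. Isoform levels of such genes carry that spread, which the gene sums do not.

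Shares of transcripts were tested for 37 of the genes with edgeR's diffSpliceDGE. None passed (background 0.383%). Only ECT2 had an unadjusted p under 0.05 (background 3.47%), at 0.0255 by edgeR's test and 1.00 after adjustment. ECT2 was called without overexpression replicate 4 (adjusted p = 0.00336), and ECT2 and PRC1 were called without the filter on low counts (0.0278 and 0.0168). The share of all genes called in those settings is not given here. On simulated data this test made more false calls than its threshold allows.

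**Figure D5:**
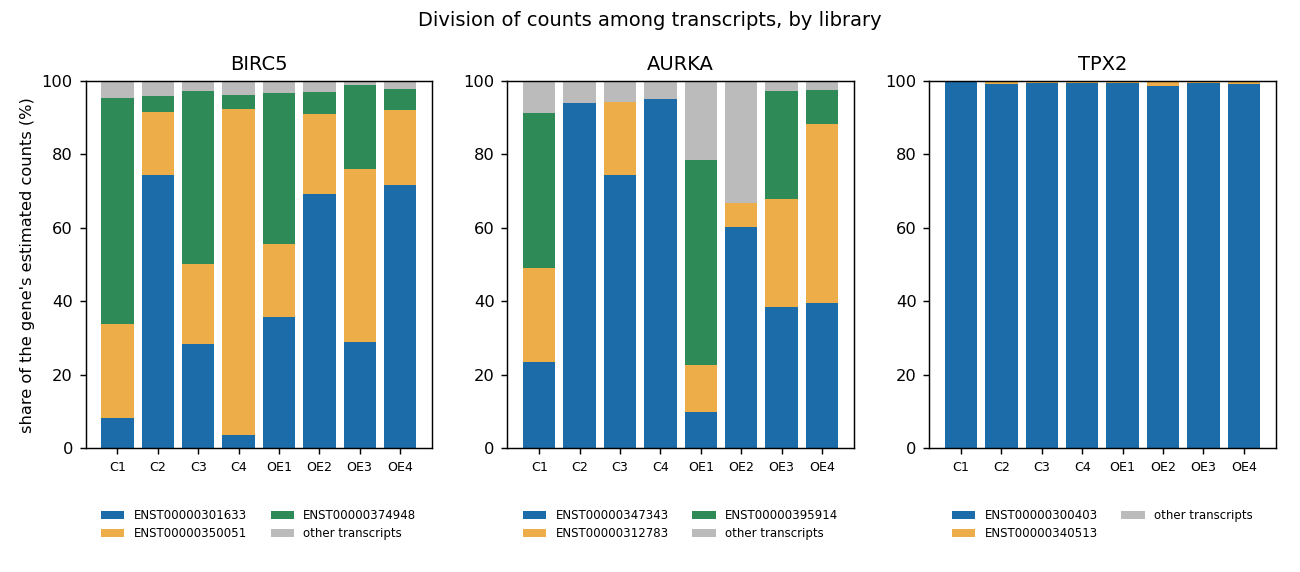
Share of a gene's estimated counts (vertical axis, %) held by its most abundant transcripts in each library for BIRC5, AURKA and TPX2, with the remaining transcripts in grey. BIRC5 and AURKA change their leading transcript between replicates of one group, while ENST00000300403 holds at least 98.5% of TPX2 everywhere.

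Neighbouring machinery was read from the same fit in 10 lists, 187 genes of which 186 were tested. No gene in any of them passed the adjusted threshold by edgeR, beside the background of 0.301%. The counts below at an unadjusted p under 0.05 are to be read beside 9.46% lower and 9.92% higher over all genes, and no list was tested as a set. Of 18 subunits and partners of the anaphase-promoting complex, 2 had an unadjusted p under 0.05 (both higher, median log2 fold change 0.02), led by the subunit ANAPC5 with 0.19 (SE 0.05, adjusted p = 0.0878). Of 26 inner centromere and kinetochore genes, 4 were higher and 2 lower at that threshold (median 0.01), led by PMF1, a subunit of the MIS12 complex, with −0.27 (SE 0.06, adjusted p = 0.0705). Of 8 other checkpoint factors none reached it (median −0.01), and MAD1L1, the partner of MAD2, had −0.43 (SE 0.19, adjusted p = 0.271).

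Cohesin holds sister chromatids together and condensin compacts them. Of 13 cohesin genes, 12 had a log2 fold change below 0 (47.4% of all genes) and 5 had an unadjusted p under 0.05, all lower (median −0.09), led by the cohesin loader NIPBL with −0.19 (SE 0.06, adjusted p = 0.116). Of 8 condensin genes, 7 were below 0 and 2 had such a p (median −0.05), led by NCAPG with −0.16 (SE 0.04, adjusted p = 0.106).

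Of 17 entry and exit regulators tested, 1 was higher and 3 lower at an unadjusted p under 0.05 (median −0.0012), led by the phosphatase CDC25A with −0.17 (SE 0.04, adjusted p = 0.0974). Of 16 DREAM, MuvB and FOXM1 regulators, 2 were higher and 4 lower (median −0.03), led by RBL1 with −0.18 (SE 0.05, adjusted p = 0.0995). Of 35 other spindle, centrosome and cytokinesis factors, 1 was higher and 7 lower (median −0.03), led by ARHGEF2, an exchange factor bound to microtubules, with −0.60 (SE 0.11, adjusted p = 0.0640).

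Of 30 genes of the step from G1 into S phase, 1 was higher and 11 were lower at an unadjusted p under 0.05, beside 9.46% lower and 9.92% higher over all genes. The groups did not overlap for 8 lower and 1 higher, beside 5.77% and 5.84%, and the median log2 fold change was −0.06. DTL, which marks the licensing factor CDT1 for destruction, led with −0.23 (SE 0.05, adjusted p = 0.0597). The median deviation of this list was above 0 in all 4 controls (0.00084 to 0.061) and below 0 in all 4 overexpression libraries (−0.062 to −0.020). Genes of the list with separate lower groups, counted above, enter this median, so it partly repeats that count. The median deviation of the 42 mitotic genes did not separate the groups in this way. In control replicate 4 the value of 0.00084 was under the median of all genes tested there (0.0052). Of 15 CDK inhibitors and brakes, 4 were lower and 0 higher (median −0.09), led by the stress gene GADD45A with −0.40 (SE 0.12, adjusted p = 0.144). With edgeR, calls in these lists appeared when single libraries were left out: 3 G1 to S genes without control replicate 4 and 3 without overexpression replicate 1, 1 spindle factor without control replicate 4, and 1 entry regulator and 1 brake without overexpression replicate 1. Calls over all genes also rose in these settings, from 58 to 194 (0.994%) without control replicate 4 and to 378 (1.94%) without overexpression replicate 1.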

How the data were processed

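RNA sequencing of 4 control and 4 KCNQ3-overexpressing HEK293T libraries was analysed from transcript tables. The authors deposited estimated counts per transcript, which were whole numbers, and TPM (levels corrected for transcript length and library depth) per transcript. Per the submitters' processing notes, cutadapt 2.8, FastQC 0.11.5, HISAT2 2.1.0, SAMtools 1.9, StringTie 2.1.0 and GRCh38.p13 were used. Not given in the sources used here are the use of strand in counting and the rule for dividing reads shared by isoforms or overlapping genes.

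Gene sums used the transcript identifiers of GENCODE release 29 (GRCh38). Of 227751 identifiers, 21947 did not match and entered no gene sum, and 98.7% to 98.9% of counts were matched. All members were matched. No file row lacked a name. Chi-square per degree of freedom between replicates was 9.72 to 18.6, so each library was kept as its own replicate.

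Counts were tested with edgeR 4.0.16 in R 4.3.3 (quasi-likelihood, robust, TMM, filterByExpr with minimum count 10 and minimum total 15, Benjamini-Hochberg adjustment over all genes, threshold 0.05), without covariates. Transcripts were tested likewise, and their shares with diffSpliceDGE, which made more false calls than its threshold allows when tested on simulated data. Standard errors and 95% intervals are those implied by the test. The genes printed in full were those with an unadjusted p under 0.05 and no overlap between groups, and in each role group the highest by TPM and the one with the largest change. From each pathway list the gene with the smallest p was named. Members and lists were chosen with earlier results of these data known. Same-numbered libraries did not deviate together (Pearson r over genes from −0.051 to 0.053), so the numbers were not treated as pairs. Alternatives were DESeq2 1.42.0, limma 3.58.1 on log2(TPM + 0.5) and log2(TPM + 1), other scalings and filters, a replicate block, non-robust estimation and leaving out each library, 18 in all.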

Additional observations from a re-analysis of the deposited data

Results flagged for a closer look

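Within each group of 4, a library was marked where its gap to the nearest other library took up more of the group's whole range than Dixon's 95% critical value for 4 samples. Of 84 groups, 42 genes in 2 conditions, 5 were marked (5.95%), and chance alone marks about 1 in 20. Overexpression replicate 1 appears in 3 of the 5. It was low for CCNA2, encoding cyclin A2, at 145 CPM beside 149.8 to 150.4 CPM in the other overexpression libraries, and for SPC24, a kinetochore subunit, at 57.8 CPM beside 65.4 to 66.2 CPM. It was high for the spindle motor KIF11, at 185 CPM beside 173 to 174 CPM. Control replicate 2 was high for BUB1B, at 98.1 CPM beside 92.4 to 93.3 CPM, and control replicate 1 was low for BUB3, at 266 CPM beside 281 to 282 CPM.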

How the results depend on the processing

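The members were called by 1 alternative of 18: DESeq2 took 3 past the threshold (7.14%, beside 7.02% of all genes), the other alternatives 0. HMMR, TPX2, KIF2C, NEK2, NUF2, NDC80, INCENP, NUSAP1, PRC1, TOP2A and MKI67 stayed lower and UBE2C and PTTG1 stayed higher in every alternative run. With 4 libraries per group, spread between libraries and, for the less abundant members, counting error limit the precision. Shared exons and isoforms limit PRC1 and the single transcripts, and no other measure of the cell cycle was analysed here. The cause of each change below was not tested.

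On log2(TPM + 0.5), log2(TPM + 1) and log2(TPM + 1) without a filter, in that order, the log2 fold change was −0.0399, −0.0398 and −0.0398 for AURKB, 0.1255, 0.1252 and 0.1252 for BUB3, and −0.0651, −0.0647 and −0.0647 for MAD2L1. The median of all genes was −0.033, −0.031 and −0.0079 on these scales. Of the 42 members 37 were below 0 on each. At an unadjusted p under 0.05, 8, 8 and 9 were lower (8.31%, 8.32% and 6.06% of all genes) and 1, 1 and 1 higher (4.74%, 4.72% and 3.8%). Separate lower groups were found for 5, 5 and 5 (4.01%, 4.01% and 2.83%). Medians of the lists there were −0.1442, −0.1375 and −0.1375 for CDK inhibitors, −0.0839, −0.0829 and −0.0829 for DREAM regulators, −0.1058, −0.1050 and −0.1050 for G1 to S genes, −0.1266, −0.1256 and −0.1256 for condensin, −0.0346, −0.0340 and −0.0340 for the inner centromere, −0.0745, −0.0741 and −0.0643 for entry and exit control, −0.0641, −0.0629 and −0.0629 for other checkpoint factors, and −0.0630, −0.0623 and −0.0623 for other spindle factors.

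With no scaling factor 33 members were below 0, and 0 were higher at an unadjusted p under 0.05 (7.94% of all genes). AURKB was −0.0046, and the medians were −0.0439 for DREAM regulators, −0.0195 for entry and exit control and −0.0299 for other checkpoint factors. With RLE factors, and without robust estimation, 1 member was higher at that p (9.47% and 9.96% of all genes). DESeq2 called 1352 genes in all (7.02%), of which 10 were G1 to S genes, 4 other spindle factors, 3 DREAM regulators, 2 cohesin, 2 condensin and 2 entry and exit genes, and 1 each among CDK inhibitors, the anaphase-promoting complex and the inner centromere. The usage test without a filter called 2 member genes, and the share of all genes it called there is not given here.

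A replicate block called 86 genes, against 58 without it, and 0 members, and 1 G1 to S gene passed. It changed no other call. The numbers mark no shared culture in the labels, and same-numbered libraries correlated by −0.051 to 0.053.

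Leaving out 1 library at a time gave −0.0336 to 0.081 for AURKB and −0.0546 to 0.0217 for CDK1. Members higher at an unadjusted p under 0.05 numbered 0 to 2 (6.65% to 10.4% of all genes). Separate groups numbered 0 to 2 higher (6.65% to 10.6%) and 3 to 6 lower (7.2% to 11.3%), and usage calls 0 to 1. Calls numbered 0 to 3 among G1 to S genes, 0 to 1 among CDK inhibitors, 0 to 1 among entry and exit control and 0 to 1 among other spindle factors. Medians ran from −0.1157 to −0.0582 for CDK inhibitors (without overexpression replicate 4), −0.064 to 0.0074 for DREAM regulators (without overexpression replicates 1 and 3), −0.0217 to 0.0076 for entry and exit control and −0.0265 to 0.0067 for other checkpoint factors (without overexpression replicates 1 and 3).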

Other observations

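A search of the annotation by symbol found 16 copies of these genes, all but PTTG2 pseudogenes, and 14 had a count. The highest share was that of CDC20P1, whose counts over all libraries were 10.9% of those of CDC20, the activator of the anaphase-promoting complex. PTTG3P had 2.86% of the counts of PTTG1, AURKAP1 2.20% of those of AURKA and NEK2P2 2.06% of those of NEK2. How the estimate divided reads between such a gene and its copy was not tested.

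Besides PRC1, 8 members (ANLN, CCNA2, CDC25C, CENPA, KIF20A, KIF4A, NUF2 and SPC24) share 5 to 293 exon bases with another gene that had at least 5% of the member's counts. CCNA2 shares 254 bases with EXOSC9 on the opposite strand, and CENPA shares 138 bases with SLC35F6 on its own strand.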
